A study of Rattus norvegicus with 4 samples.

Results

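The genes described here encode the matrix metalloproteinases (Mmp), the ADAM and ADAMTS proteases (Adam, Adamts) and the tissue inhibitors of metalloproteinases (Timp). They were chosen by symbol alone, as every gene of the array whose symbol starts with Mmp, Timp or Adam and a digit, or with Adamts. The rule used no measured value, but it was set with earlier results of these data known. This gave 55 of the 14217 genes measured and 79 of the 31042 probe sets tested. There are 17 Mmp genes, 18 Adam genes, 16 Adamts genes (of which 4 are Adamts-like) and 4 Timp genes.

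The RNA was that of neonatal rat cardiomyocytes, muscle cells isolated from the ventricles of Sprague-Dawley rats aged 1 to 2 days and kept in primary culture. For 24 hours the cultures were exposed to adenovirus encoding GFP alone (Ad-GFP, 2 arrays) or encoding both GFP and atrogin-1 (Ad-atrogin-1, 2 arrays). Atrogin-1, the product of Fbxo32, is the substrate-recognition subunit of a muscle ubiquitin ligase. Virus and GFP were thus common to both groups, and uninfected cells were not analysed here.

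Matrix metalloproteinases are zinc enzymes that are made as inactive proenzymes and, once cleaved, degrade collagens, proteoglycans and other proteins around the cell. ADAM proteases sit in the cell membrane and release the outer part of growth factors, receptors and adhesion molecules, whereas ADAMTS proteases are secreted and cut aggrecan, versican and other matrix proteins. TIMPs bind the active enzymes and block them, and in the heart the balance of proteases and inhibitors is known for its part in the remodeling of the ventricular wall.

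According to the labels, arrays within a group are biological replicates. With 2 arrays a group their number limits the precision, and p-values measure only the spread between these samples. Values are log2 signals per probe set, made by the authors with robust multi-array average (RMA), and each change is the mean of Ad-atrogin-1 minus the mean of Ad-GFP on that scale. Fbxo32 had log2 signals of 5.24 and 5.04 on the Ad-GFP arrays and of 13.55 and 13.47 on the Ad-atrogin-1 arrays, which follows the labels. Cardiomyocyte markers (12 genes) and fibroblast markers (11 genes) were measured in full and none of them lay under the lower quartile of signals on all 4 arrays, so RNA of both cell types was present. Fewer cells of a type and less RNA per cell cannot be told apart in such samples.

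No member probe set passed the test of the study's thresholds, an adjusted p under 0.05 in limma and a change of at least 2-fold, against 85 of all 31042 probe sets (0.274%, of which 0.248% were higher and 0.0258% lower). The lowest adjusted p of limma among the members was 0.0704, for Mmp3. At an unadjusted p under 0.05 there were 11 member probe sets (13.9%), beside 11.2% of all probe sets. Of these, 8 were lower under Ad-atrogin-1 (10.1% of the members, 5.61% of all probe sets) and 3 were higher (3.8% and 5.6%). The methods' t-test, an equal-variance test, called 0 member probe sets after adjustment, but it also called 0 over all probe sets. It had 9 member probe sets at an unadjusted p under 0.05, of which 4 were higher and 5 lower. The share of all probe sets at that level in this test is not given here. In limma the members as a whole lay near the background in number. The greater number on the lower side in limma was absent without Ad-atrogin-1 replicate 2, a fit for which the share of all probe sets is not given here.

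The 2 Ad-atrogin-1 arrays lay entirely above or below the Ad-GFP arrays in 19 of the 55 genes (34.5%), against 43% of all genes. They were above in 8 and below in 11. The median log2 fold change was -0.05 over the Mmp genes, -0.05 over the Adam genes, -0.02 over the Adamts genes and -0.05 over the Timp genes, beside -0.0028 over all genes. In 48 of the 55 genes the change was within 0.5 in either direction, and 7 genes had signals under the lower quartile of the array (3.88 to 3.94) on all 4 arrays, so the size of their change is not exact. Most of these genes thus showed differences no larger than those between arrays of a group: the change exceeded both replicate gaps in 21 of 79 probe sets (26.6%), beside 28.8% of all probe sets.

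**Figure D1:**
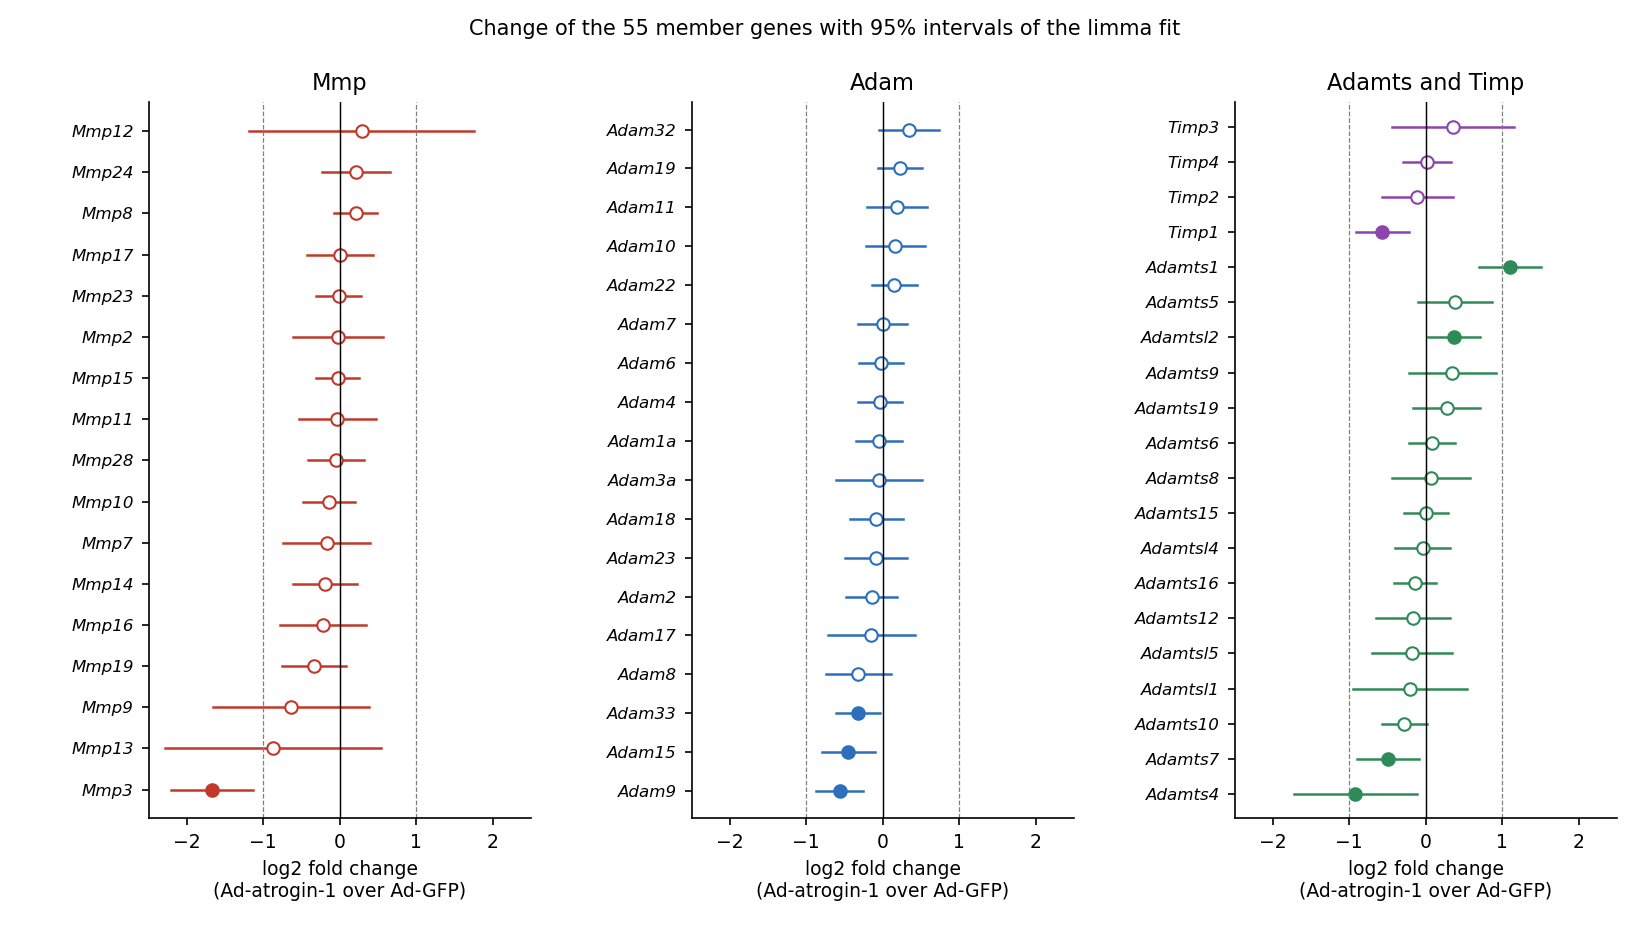
Log2 fold change of each of the 55 genes (x axis, Ad-atrogin-1 over Ad-GFP, brightest probe set, 2 arrays a group) with its 95% interval from limma. Filled points have an unadjusted p under 0.05, dashed lines mark 2-fold, and Mmp3 (-1.67) and Adamts1 (1.10) are the only points beyond them.

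The stromelysins are metalloproteinases with a broad range of substrates, and Mmp3 (stromelysin-1) also activates other proenzymes. Mmp3 showed the largest change of all members and is the member that the study also measured by qRT-PCR. Its log2 signal was 8.53 and 8.85 on the Ad-GFP arrays and 7.29 and 6.76 on the Ad-atrogin-1 arrays. Both Ad-atrogin-1 arrays lay more than 1 log2 unit under both Ad-GFP arrays. The log2 fold change was -1.67 (SE 0.22, 95% interval -2.20 to -1.13, limma, n = 2 arrays a group), which is 3.18-fold lower, with an unadjusted p of 0.000331 and an adjusted p of 0.0704. Mmp3 therefore missed the adjusted threshold on the values as deposited. It passed after a further quantile normalization (adjusted p = 0.0467 in limma). It also passed when probe sets were averaged by gene (adjusted p = 0.0456 in limma). Mmp3 has a single probe set, so averaging left its values as they were and changed only the fit and the adjustment. With the brightest probe set per gene and p adjusted over genes it did not pass (adjusted p = 0.0551 in limma).

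In the rat Mmp3 lies on chromosome 8 in a row of metalloproteinase genes, in the order Mmp13, Mmp12, Mmp1b, Mmp3, Mmp1, Mmp10, Mmp8, Mmp27, Mmp20 and Mmp7, of which 6 of 10 were measured here. Of these, Mmp13, Mmp12, Mmp10, Mmp8 and Mmp7 are described after their values had been seen, because they are the neighbours of Mmp3. Genes of this cluster are known for promoters with a TATA box and an AP-1 site, which is the sequence bound by Fos and Jun proteins. The 150 bases before the start of each measured gene are given here with such sites marked. They come from RefSeq on GRCr8 and are on the plus strand, written 5′ to 3′. Capitals mark TGANTCA, the AP-1 motif, and TATAAA or its reverse complement, both searched on both strands.
Mmp13, chr8:12782679-12782828: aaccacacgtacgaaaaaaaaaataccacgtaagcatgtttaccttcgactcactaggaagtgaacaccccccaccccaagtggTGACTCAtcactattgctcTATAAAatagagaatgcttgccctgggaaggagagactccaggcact
Mmp12, chr8:12866502-12866651: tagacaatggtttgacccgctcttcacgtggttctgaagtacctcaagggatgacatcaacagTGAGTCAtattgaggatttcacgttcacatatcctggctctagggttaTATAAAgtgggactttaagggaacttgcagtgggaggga
Mmp3, chr8:12925131-12925280: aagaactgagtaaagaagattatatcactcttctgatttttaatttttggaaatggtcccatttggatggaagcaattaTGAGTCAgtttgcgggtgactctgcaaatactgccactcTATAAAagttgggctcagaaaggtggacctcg
Mmp10, chr8:12974557-12974706: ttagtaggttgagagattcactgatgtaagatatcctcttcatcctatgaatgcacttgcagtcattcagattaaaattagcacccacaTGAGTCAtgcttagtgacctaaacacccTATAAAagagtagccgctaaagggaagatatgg
Mmp8, chr8:13008740-13008889: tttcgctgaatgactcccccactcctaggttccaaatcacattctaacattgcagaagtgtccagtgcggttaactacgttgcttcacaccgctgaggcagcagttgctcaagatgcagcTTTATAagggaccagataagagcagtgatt
Mmp7, chr8:13132893-13133042: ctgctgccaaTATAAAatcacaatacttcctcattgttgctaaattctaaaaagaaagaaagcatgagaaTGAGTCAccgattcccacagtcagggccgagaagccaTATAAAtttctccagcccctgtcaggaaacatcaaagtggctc

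The AP-1 letters stood 71 bases before the start of Mmp3 and the TATA letters 32 bases before it, counted from the first letter of the motif. The AP-1 letters were present in 5 of these 6 genes, and Mmp8 had none within 250 bases. Over all RefSeq promoters with 250 bases before the start, 2122 of 33469 held TGANTCA (6.34%) and 4328 held TATAAA (12.9%). Of the 55 members 34 had a promoter in that set, of which 6 held TGANTCA (17.6%: Adam19, Mmp10, Mmp12, Mmp13, Mmp3 and Mmp7) and 10 held TATAAA (29.4%). Adamts1, whose change was the largest in the other direction, held TATAAA but not TGANTCA. A match of these letters is a description of the sequence only.

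Whether the measured neighbours of Mmp3 followed it could not be judged, as their signals were low or their replicates lay far apart. Mmp10 (stromelysin-2) had log2 signals of 3.86 and 3.99 under Ad-GFP and of 3.67 and 3.89 under Ad-atrogin-1, so the groups overlapped. It was under the lower quartile on every array but the second Ad-GFP array. Mmp7 (matrilysin) lay at 3.16 and 3.60 against 2.96 and 3.46, under the lower quartile on every array. Mmp8 (neutrophil collagenase) was also under the lower quartile, at 3.01 and 2.95 against 3.20 and 3.18, where the groups did not overlap and Ad-atrogin-1 was above. Signals of Mmp10, Mmp7 and Mmp8 are thus at a level where a difference between groups was not well measurable. Mmp11 (stromelysin-3), which lies elsewhere in the genome, had a log2 fold change of -0.03 (SE 0.20).

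Mmp13, Mmp9 and Mmp12 differed more between arrays of 1 group than between groups. Mmp13 (collagenase-3, which cuts fibrillar collagen) had log2 signals of 5.37 and 7.17 under Ad-GFP and of 5.64 and 5.15 under Ad-atrogin-1. The second Ad-GFP array stood apart from the other 3 arrays, and the log2 fold change of -0.87 (SE 0.57) had an interval from -2.29 to 0.54. The gelatinase Mmp9, which degrades denatured collagen and basement membrane, followed a similar course, with 8.10 and 9.37 against 7.91 and 8.29. Again the second Ad-GFP array was the highest of the 4. Its second probe set gave 7.78 and 8.82 against 7.49 and 7.82, and the log2 fold changes of the probe sets were -0.63 (SE 0.41) and -0.65 (SE 0.34). A gap of at least 2-fold between the Ad-GFP arrays was found for 3 member probe sets (3.8%), those of Mmp13 and Mmp9, against 0.538% of all probe sets. For the Ad-atrogin-1 group, the probe set of Mmp12 was the only member with such a gap (1.27%, against 0.493% of all). Between the groups 2 member probe sets (2.53%), those of Mmp3 and Adamts1, differed by 2-fold or more with no test applied, beside 0.979% of all probe sets.

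**Figure D2:**
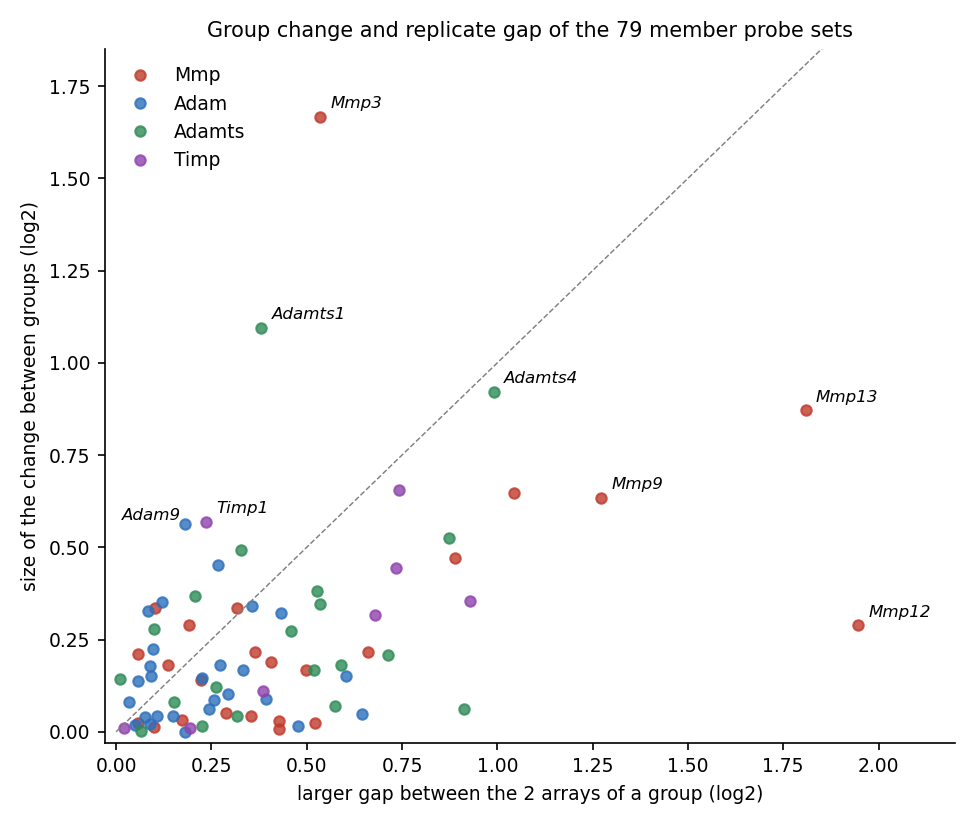
Size of the log2 change between groups (y axis) against the larger gap between the 2 arrays of a group (x axis, log2) for the 79 member probe sets, coloured by family. Points above the dashed line of equality, such as Mmp3 and Adamts1, changed by more than their replicates differed, while Mmp13, Mmp9 and Mmp12 lie far under it.

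Mmp12 (macrophage elastase) had log2 signals of 7.01 and 7.18 under Ad-GFP and of 8.36 and 6.41 under Ad-atrogin-1. The first Ad-atrogin-1 array was the highest and the second the lowest of the 4, and the log2 fold change was 0.29 (SE 0.59, 95% interval -1.18 to 1.76). The 8 macrophage and leukocyte markers had mean log2 signals of 5.18 and 5.40 under Ad-GFP and of 5.80 and 4.79 under Ad-atrogin-1, which is the same order of arrays. The log2 of their summed signal ran from 8.46 to 8.64 under Ad-GFP and from 7.95 to 9.17 under Ad-atrogin-1. Of the 8 markers, 6 were highest on the first Ad-atrogin-1 array and 6 were lowest on the second, and none was under the lower quartile on all arrays. Il1b, a cytokine made by macrophages and an inducer of Mmp genes, was added after its values had been seen and ran 6.77 and 7.69 against 8.72 and 6.48. The part of macrophage RNA in the values of Mmp12 was not tested.

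**Figure D3:**
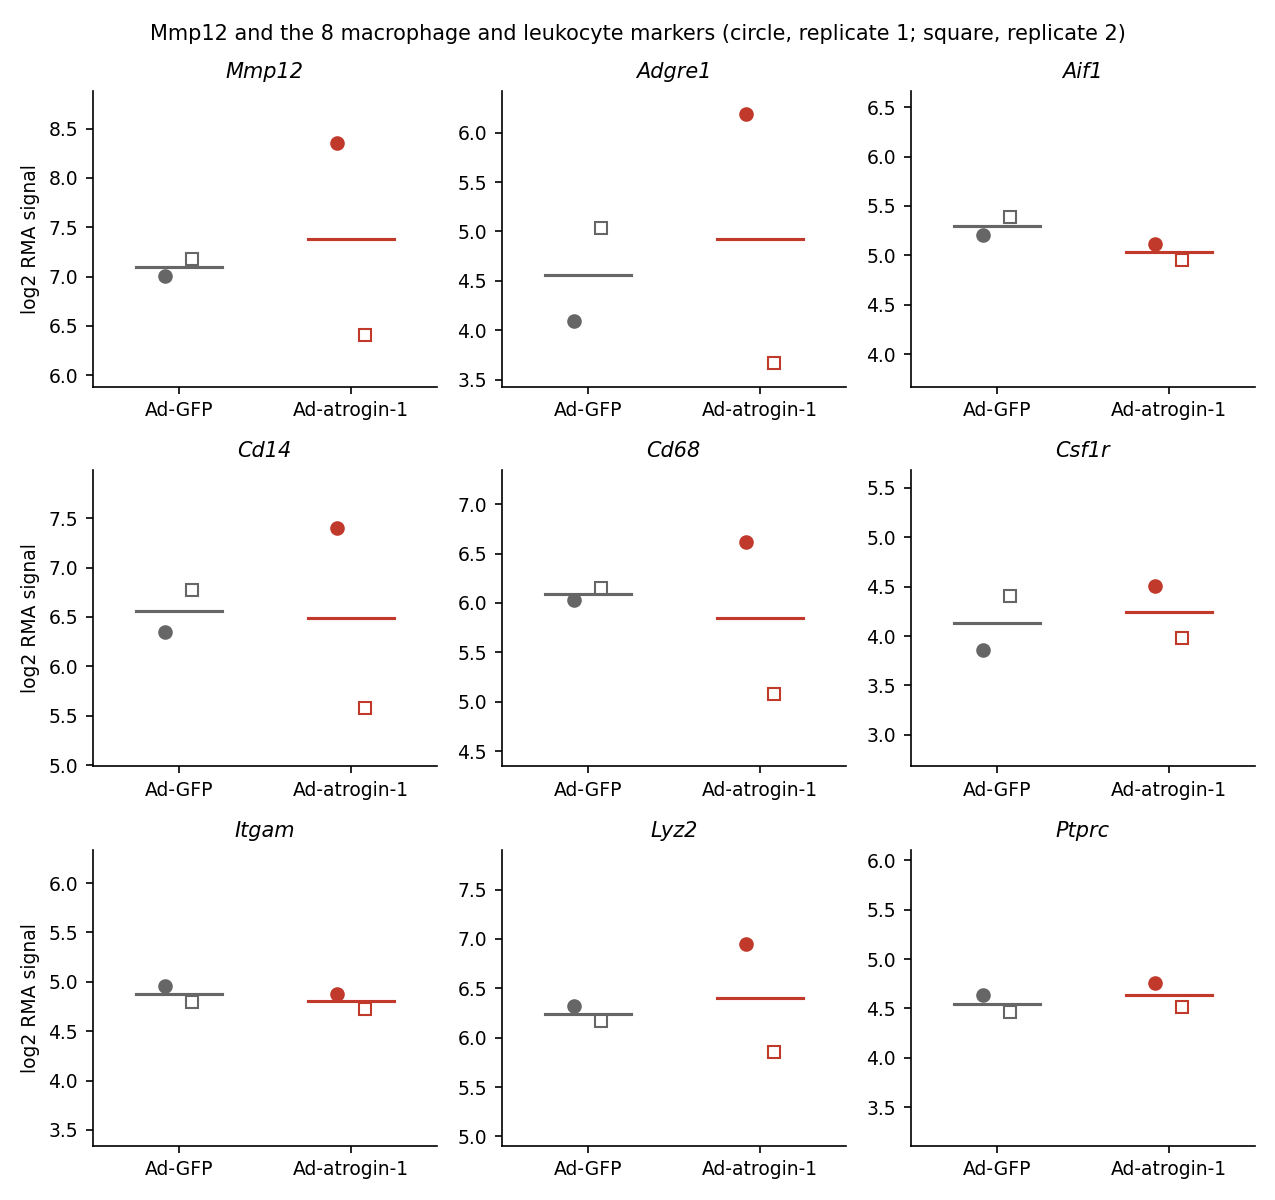
Log2 RMA signal of Mmp12 and of each of the 8 macrophage and leukocyte markers (y axis) on the 2 Ad-GFP and 2 Ad-atrogin-1 arrays, with lines at the group means. Mmp12, Adgre1, Cd14, Cd68 and Lyz2 share the highest signal on the first Ad-atrogin-1 array and the lowest on the second.

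The groups overlapped at the brightest probe set of Mmp2 and of each membrane-type enzyme. Mmp2 (gelatinase A, which fibroblasts make in large amounts) had log2 signals of 9.10 and 9.62 under Ad-GFP and of 9.57 and 9.09 under Ad-atrogin-1. The log2 fold change was -0.02 (SE 0.24), and its interval from -0.62 to 0.57 leaves changes of up to about that size undecided. Mmp14 (MT1-MMP, the membrane-bound activator of Mmp2) lay at 10.11 and 10.52 against 10.18 and 10.07, a log2 fold change of -0.19 (SE 0.17). A dimmer Mmp14 probe set had groups that did not overlap, at 7.31 and 7.36 against 7.05 and 6.95, with a log2 fold change of -0.33 (SE 0.12, unadjusted p = 0.0304 and adjusted p = 0.381 in limma). Over the 5 membrane-type genes the log2 fold changes of the brightest probe sets ran from -0.22 to 0.22. The dimmer probe sets of Mmp24 (MT5-MMP, known from the nervous system) had groups that did not overlap, Ad-atrogin-1 being above, with log2 fold changes of 0.29 (SE 0.13) and 0.47 (SE 0.29) and no unadjusted p under 0.05. At their brightest probe sets the remaining Mmp genes, Mmp19, Mmp23 and Mmp28, ranged from -0.34 to -0.01, and only Mmp19 had groups that did not overlap. A dimmer Mmp23 probe set did not overlap either, at 5.66 and 5.52 against 5.39 and 5.43 (-0.18, SE 0.12).

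Among the ADAM proteases, the lower values stood with the sheddases, the members that carry an active site and release surface proteins. Of 7 such genes, 3 were at an unadjusted p under 0.05, all lower (Adam9, Adam15 and Adam33), and the median log2 fold change was -0.32. The background is an unadjusted p under 0.05 in 13.4% of all genes, with 6.52% lower and 6.83% higher. The other 11 Adam genes, which act mostly in fertilization and in the nervous system, had none at that level and ranged from -0.15 to 0.34, and 3 of them were under the lower quartile on all arrays.

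Adam9, a sheddase of growth factors such as HB-EGF, had log2 signals of 6.49 and 6.67 under Ad-GFP and of 6.02 and 6.01 under Ad-atrogin-1. The Ad-atrogin-1 arrays were close together and under both controls, with a log2 fold change of -0.56 (SE 0.12, adjusted p = 0.194 in limma). Adam15, an ADAM with an integrin-binding motif, lay at 6.37 and 6.46 against 5.83 and 6.10 (-0.45, SE 0.14, adjusted p = 0.326 in limma). Adam33, known as a gene linked to airway disease, lay at 7.05 and 6.96 against 6.71 and 6.64 (-0.33, SE 0.12, adjusted p = 0.391 in limma). The groups were apart for each of the 3 genes, but the differences were under 2-fold and none passed the adjusted test.

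For the best known sheddases the brightest probe sets overlapped between groups. Adam17 (TACE, which releases TNF and ligands of the EGF receptor) had log2 signals of 8.32 and 8.92 under Ad-GFP and of 8.61 and 8.32 under Ad-atrogin-1, a log2 fold change of -0.15 (SE 0.23, 95% interval -0.72 to 0.42). Adam10, the sheddase of Notch receptors and cadherins, lay at 6.65 and 6.98 against 6.90 and 7.07, a log2 fold change of 0.17 (SE 0.16, 95% interval -0.22 to 0.56). A dimmer Adam10 probe set did not overlap, at 5.18 and 5.26 against 5.41 and 5.39, with a log2 fold change of 0.18 (SE 0.11, unadjusted p = 0.172 in limma). Adam19, an ADAM needed for the development of the heart valves and septum, had both Ad-atrogin-1 arrays above the controls at its brightest probe set. This probe set read 7.91 and 7.94 against 8.19 and 8.10 (log2 fold change 0.22, SE 0.12). A dimmer one read 6.88 and 6.76 against 7.20 and 7.14 (0.35, SE 0.12, unadjusted p = 0.0269 and adjusted p = 0.364 in limma), and the remaining Adam19 probe sets gave -0.06 and -0.14.

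Of the 6 ADAMTS proteases that cut aggrecan and versican, 1 was higher (Adamts1) and 1 lower (Adamts4) at an unadjusted p under 0.05, none passed the test, and 3 overlapped between groups. Adamts1 (aggrecanase and versicanase, and an enzyme of the developing ventricle) had log2 signals of 8.44 and 8.57 under Ad-GFP and of 9.41 and 9.79 under Ad-atrogin-1. Both Ad-atrogin-1 arrays exceeded both controls, with a log2 fold change of 1.10 (SE 0.16, n = 2 arrays a group), which is 2.14-fold higher. Its unadjusted p was 0.000684 and its adjusted p 0.0908 in limma, so that it too missed the threshold. Adamts4 (aggrecanase-1) ran the other way, with 7.11 and 8.10 against 6.81 and 6.56 and a log2 fold change of -0.92 (SE 0.32, adjusted p = 0.387 in limma). The size of this difference rested on the second Ad-GFP array, and the log2 fold change was -0.43 without it.

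The other genes of this group lay between them. Adamts5 (aggrecanase-2) was 6.12 and 6.17 against 6.79 and 6.26 (log2 fold change 0.38, SE 0.19), so that its groups were apart by little. A dimmer Adamts5 probe set overlapped (0.52, SE 0.32). Adamts9 gave 0.35 and overlapped, and its dimmer probe set gave -0.12 and overlapped too. Adamts8 was at 7.63 and 7.05 against 7.38 and 7.44 (0.07, SE 0.20). Adamts7, a protease of cartilage oligomeric matrix protein, was among the remaining 6 Adamts genes and read 6.94 and 7.17 against 6.73 and 6.40 (-0.49, SE 0.16, adjusted p = 0.362 in limma). Adamts10, which acts with fibrillin, had groups that did not overlap at its brightest probe set and a log2 fold change of -0.28. Its dimmer probe set overlapped (-0.02). Adamts-like proteins lack a protease domain. Of the 4 measured, Adamtsl2, which binds the latent form of TGF-beta, was higher at 6.53 and 6.32 against 6.14 and 5.98 (0.37, SE 0.14, adjusted p = 0.411 in limma), whereas Adamtsl5, the brightest, overlapped at 7.84 and 7.25 against 7.31 and 7.41.

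**Figure D4:**
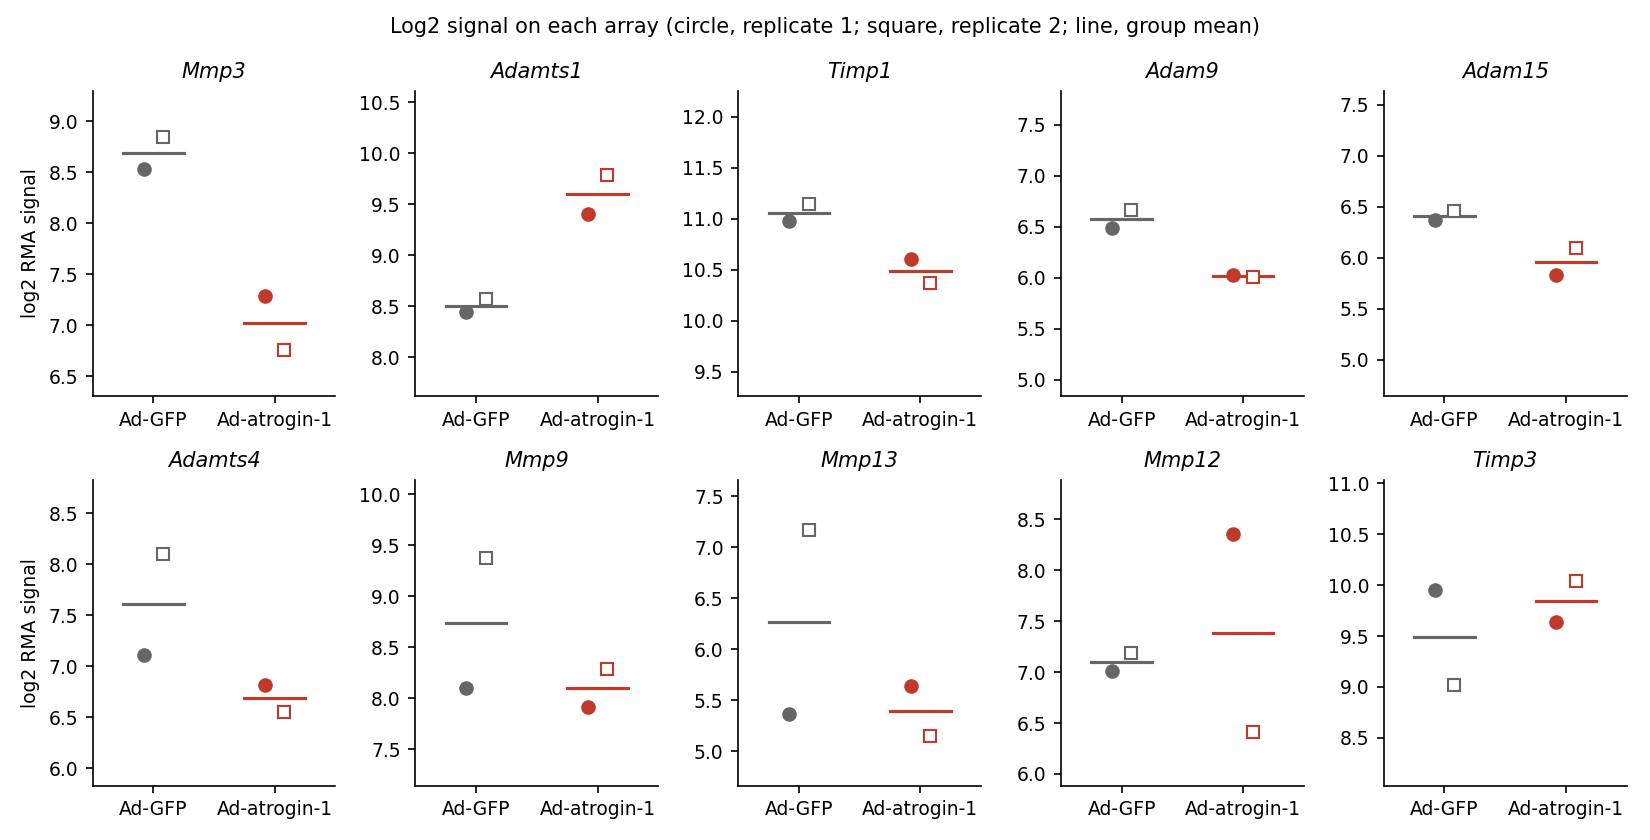
Log2 RMA signal (y axis) of 10 members on each of the 4 arrays, with lines at the means of Ad-GFP and Ad-atrogin-1. Groups were apart for Mmp3, Adamts1, Timp1, Adam9, Adam15 and Adamts4, and overlapped for Mmp9, Mmp13, Mmp12 and Timp3.

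Of the 4 inhibitors, Timp1 was the one whose groups did not overlap. Timp1, a secreted inhibitor that is inducible and also binds proMMP-9, had log2 signals of 10.98 and 11.14 under Ad-GFP and of 10.61 and 10.37 under Ad-atrogin-1. The log2 fold change was -0.57 (SE 0.14, 95% interval -0.92 to -0.22), which is 1.48-fold lower, with an unadjusted p of 0.00765 and an adjusted p of 0.239 in limma. Timp2, which takes part in the activation of proMMP-2 at the cell surface, lay at 9.52 and 9.85 against 9.77 and 9.38, a log2 fold change of -0.11 (SE 0.19, 95% interval -0.57 to 0.35). Timp3, the matrix-bound inhibitor that also blocks Adam17, lay at 9.95 and 9.02 against 9.64 and 10.04, a log2 fold change of 0.36 (SE 0.32, 95% interval -0.44 to 1.15). Its second Ad-GFP array was the lowest of the 4, and all 4 Timp3 probe sets gave a positive change, from 0.32 to 0.66. Timp4, known from the adult heart, was under the lower quartile on every array at 3.56 and 3.76 against 3.64 and 3.70, so no change could be measured for it.

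Where a gene had several probe sets they mostly shared a sign. As 69 of the 79 member probe sets changed by under 0.5 in log2, this says little on how well they agree. There were 16 genes with 2 or more probe sets, of which 5 had probe sets that differed in sign, and the widest span between log2 fold changes of 1 gene was 0.49.

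Genes that act around the proteases were taken from 7 lists, none of which had a gene that passed the test (limma, adjusted p under 0.05 and 2-fold). Each list is given by its 2 brightest genes, and further genes were chosen after their values had been seen. Over all genes, 6.83% were higher and 6.52% lower at an unadjusted p under 0.05 in limma. Counts in these lists and in the cell type markers below are to be read beside those shares, and each comes from few genes. The proenzyme activators (8 genes) had 0 higher and 1 lower at an unadjusted p under 0.05 and a median log2 fold change of -0.13. Furin, a convertase that activates membrane-type MMPs, gave -0.16, and Plat, the tissue plasminogen activator, gave -0.57 (unadjusted p = 0.0207 in limma). Of 17 measured cytokines and transcription factors that induce Mmp genes, 1 was higher (Ets2, 0.53) and 4 were lower (Junb, Fosl2, Nfkb1 and Rela) at that level, with a median of -0.29. The brightest were Bsg, the MMP inducer known as EMMPRIN, at -0.29 and Jund at -0.02. Junb, a component of AP-1, read 9.21 and 9.33 against 8.61 and 8.54 (-0.69, SE 0.12, adjusted p = 0.124 in limma), and Fos and Jun gave -0.15 and -0.07.

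Other protease inhibitors (7 measured) had a median of -0.50, with 0 higher and 3 lower at an unadjusted p under 0.05. Serpinb2 (plasminogen activator inhibitor-2) read 9.66 and 10.92 against 8.13 and 7.75, a log2 fold change of -2.35 (SE 0.41, adjusted p = 0.124 in limma). Cst3, an inhibitor of cysteine proteases, gave -0.50 and Tfpi2, an inhibitor of plasmin, -1.15. The partners of Adam10 and Adam17 (7 measured), which carry these enzymes to the surface, had 0 higher and 2 lower (Rhbdf2, -0.41, and Tspan5, -0.87) and a median of -0.24. The brightest of them, Rhbdf1 and Frmd8, gave -0.24 and -0.09.

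Of 26 surface proteins shed by ADAM proteases, none was higher and 7 were lower at an unadjusted p under 0.05, with a median log2 fold change of -0.27. In 12 of the 26 both Ad-atrogin-1 arrays lay under both Ad-GFP arrays and in 1 above, beside 22.3% and 20.7% of all genes. Prnp, the prion protein and the brightest, read 11.71 and 11.60 against 10.89 and 11.16 (-0.63, SE 0.14, adjusted p = 0.210 in limma), and App, the amyloid precursor, gave -0.20. The lower genes included the ligand Tgfa (-0.75) and the receptors Egfr (-0.76) and Il6r (-0.74). The matrix proteins that serve as substrates (25 measured) had 1 higher and 1 lower at that level and a median of -0.02. Fibronectin (Fn1) gave -0.20 and decorin (Dcn) -0.30, and the genes at an unadjusted p under 0.05 were Fbn2 (fibrillin-2, 1.08) and Tnc (tenascin-C, -0.78). Of 7 other metalloproteinases outside the families, 0 were higher and 2 lower (Ace, -0.62, and Bmp1, -0.28), and Ece1 gave -0.41.

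**Figure D5:**
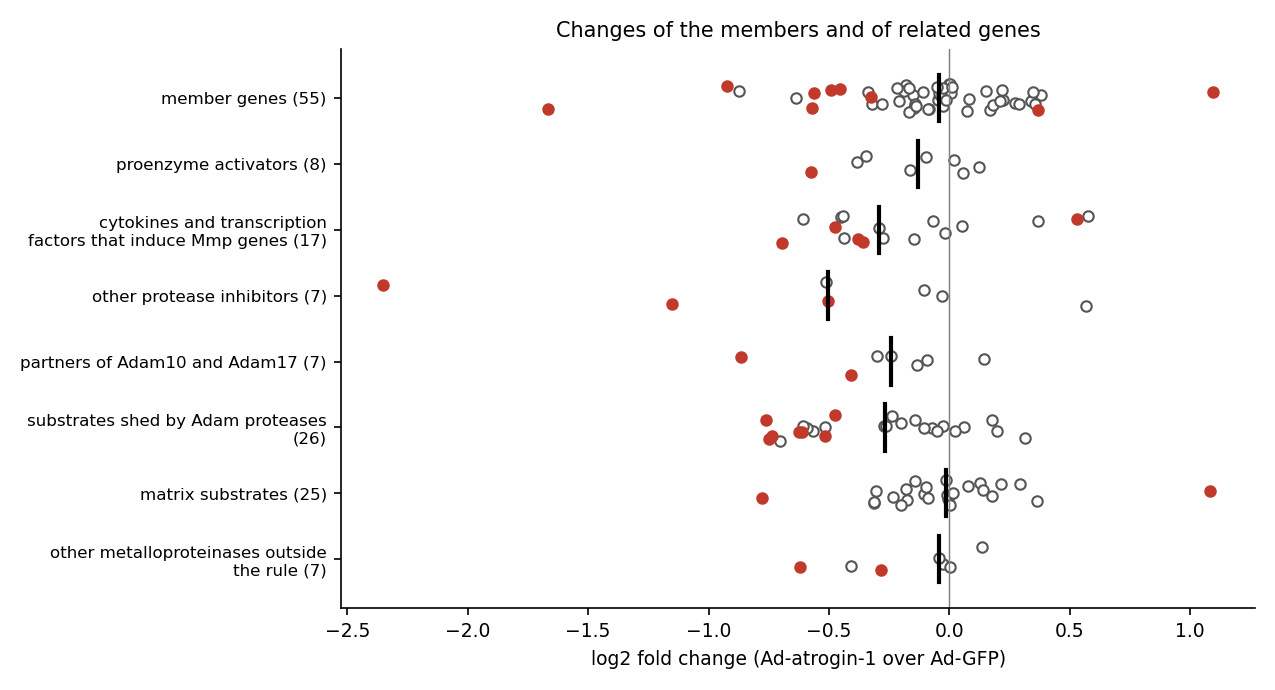
Log2 fold change (x axis, Ad-atrogin-1 over Ad-GFP) of each of the 55 members and of each measured gene of the 7 related lists, with a bar at the median. Filled points have an unadjusted p under 0.05, and the medians run from -0.50 for other protease inhibitors to -0.02 for matrix substrates.

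Markers of the cell types that such a culture can hold were read beside the members. The 11 fibroblast markers had a median log2 fold change of 0.00, with 0 at an unadjusted p under 0.05, and their mean log2 signal was 9.15 and 9.55 under Ad-GFP and 9.50 and 9.27 under Ad-atrogin-1. The log2 of their summed signal ran from 13.88 to 14.11 over the 4 arrays. Mmp3 and Timp1, which fibroblasts are known to make, lay lower under Ad-atrogin-1, and the part of fibroblast RNA in their values was not tested. Of the 11 fibroblast markers 2 lay higher and 1 (Vim, -0.24) lower on both Ad-atrogin-1 arrays. The 12 cardiomyocyte markers had means of 11.06 and 11.29 under Ad-GFP against 11.59 and 11.15, with 2 higher at that level and a median of 0.34. The 7 endothelial markers measured had means of 5.83 and 6.26 against 5.77 and 6.62, with 0 at that level, and this mean was highest on the second Ad-atrogin-1 array. The 7 smooth muscle and pericyte markers had means of 8.29 and 8.43 against 8.47 and 8.56, with 2 higher (Rgs5, 0.98, and Myh11, 0.32) and 1 lower (Cspg4, -0.50). The 7 epithelial and mesothelial markers measured had 1 higher (Krt19, 3.65) and 1 lower (Krt18, -0.83), with a median of -0.07. Their means were 4.36 and 4.62 against 4.79 and 4.87, which include Krt19 at 3.20 and 5.48 against 7.89 and 8.09. The part of these cell types in the values of the members was not tested.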

How the data were processed

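RNA of neonatal rat cardiomyocytes was measured on 4 Affymetrix rat genome arrays, 2 a group, with groups taken from the sample labels. Per the methods, the authors made the deposited log2 values by RMA in GeneSpring GX, and RMA scales arrays to a common distribution and shrinks low signals (array medians 5.51 to 5.52). The study's methods describe RNA of more independent experiments than there are arrays in a group. No filter on low signal was applied to the 31042 probe sets that remained after removal of 57 controls. Probe sets were named through a table of this array's genes: 20826 with 1 gene, 436 with several and 9780 with none, and only the first were used for genes. The brightest probe set stands for its gene.

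The moderated test of limma 3.58.1 (R 4.3.3, eBayes without trend, robust prior or block) gave two-sided p-values, adjusted by Benjamini-Hochberg across every probe set, with 2 residual degrees of freedom and a prior of 3.65 (SD 0.139). Calls take the thresholds of the methods, adjusted p below 0.05 together with a 2-fold change. As the methods name a comparison of 2 means only, an equal-variance test was also run, here called the methods' t-test, which need not be the test the study used. Calls were tested on data simulated from limma's own variance prior, with planted changes larger than that of Adamts1. That test does not bear on smaller changes or on how well the prior holds for these data.

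Named are Mmp3, members with a probe set called or at an unadjusted p under 0.05, the 3 brightest Mmp, Adam and Adamts genes, all Timp genes, members whose probe sets differ by over 1 in log2 fold change, and in each list up to 4 called genes or the 2 brightest. The members and lists were chosen with earlier results of these data known. Alternatives were other scalings, a signal filter, other variance priors, other tests and thresholds, a replicate block, other ways to combine probe sets, and each array left out in turn. Promoters are those of RefSeq on GRCr8, the build of the array's design being not given in the sources used here. Plots were made in matplotlib 3.10.9. The study's qRT-PCR and protein data were not analysed here.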

Additional observations from a re-analysis of the deposited data

How the results depend on the processing

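The number of arrays limits what can be called, and signals near the lower quartile give no exact fold. Calls over all probe sets numbered 85, and 304 at 2-fold with no test, 191 and 0 with the methods' t-test at unadjusted and adjusted p, and 0 with any array left out. Member probe sets called numbered 0, and 1 (Mmp3) after quantile normalization or with averaged probe sets. They numbered 2 (Mmp3 and Adamts1) with the methods' t-test at unadjusted p and 2 at 2-fold with no test. Calls with an array left out cannot bear on the members, because even over all probe sets there were none. The labels number the arrays alike in both groups, but deviations of same-numbered arrays from their group means correlated at 0.04 over all probe sets, so they were not paired. With the replicate block the calls were 1 over all probe sets and 0 among the members, and the adjusted p was 0.245 for Mmp3 and 0.211 for Adamts1 in limma. The count of member probe sets at an unadjusted p under 0.05 was 11, and 12 with the block, and from 4 (without Ad-GFP replicate 2) to 14 with an array left out. Mmp3 and Adamts1 kept their direction in all 14 settings (-1.93 to -1.40 and 0.90 to 1.29). Most of these settings alter the test or the background and not the change itself. As the groups of both genes lay apart, leaving an array out could not reverse them, so the kept direction is no further support.

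With an array left out, the medians ran from -0.21 to 0.00105 for Mmp, from -0.08 to 0.02 for Adam, from -0.0801 to 0.0521 for Adamts and from -0.18 to 0.0318 for Timp genes. Single genes were followed in the settings only where they were named by the rule above, which leaves out Mmp12 and Mmp13. Of the genes followed, these changed sign with an array left out and in no other setting: Adam17 (-0.45 to 0.15), Adamts8 (-0.22 to 0.36), Adamtsl5 (-0.48 to 0.11), Mmp14 (-0.39 to 0.0149), Mmp2 (-0.29 to 0.24), Mmp9 (-1.27 to 0.00105), Timp2 (-0.30 to 0.0832), Timp3 (-0.11 to 0.82) and Timp4 (-0.0860 to 0.11). Adamts4 ran from -1.42 to -0.43, and as its groups lay apart it could not change sign in this way. The cause of these changes was not tested.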
